A study of Sus scrofa with 18 samples.

Results

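Nebulette (NEBL) and 6 genes of the ventricular sarcomere, MYH7, MYL2, MYL3, TNNT2, TNNI3 and ACTN2, were followed in the right ventricle of pigs before and after acute ischemic failure. Every probe set that the probe table assigns to exactly 1 of these symbols was taken, which gave 8 probe sets of 7 genes (2 for ACTN2 and 1 for each other gene) out of 6765 genes and 23935 tested probe sets. NEBL was chosen by its failure minus baseline change in these arrays, and the other 6 genes were chosen with the results of the same comparison known. All failure minus baseline values of the members below are therefore a description and no test of them.

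The 9 Failure samples were taken from the right ventricular free wall once coronary arteries on it had been ligated, and the 9 Baseline samples from the same wall of the same 9 pigs beforehand. For 6 pigs (6, 8, 9, 11, 12 and 13) the Failure sample is labelled as taken at 120 min of ischemia, and these are called the timed pigs here. For pigs 5, 10 and 14, given as weighing 30 to 40 kg, failure was defined as a right atrial pressure above 20 mmHg, and these are called the pressure-defined pigs. All animals were of a mix of Hampshire, Yorkshire and Swedish Landrace. No sham-operated or time-matched samples were analysed here, so ligation and the time between the samples cannot be told apart. Each of the 18 samples was measured on 1 Affymetrix array, and values are log2 intensities per probe set. The number of animals limits the precision of every value.

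The sarcomere is the contractile unit of heart muscle, in which myosin thick filaments pull on actin thin filaments anchored at the Z-disc. Nebulette is the cardiac member of the nebulin family and links thin filaments to the Z-disc, where alpha-actinin cross-links actin. The gene also encodes a shorter LIM-domain form, and which form the NEBL probe set reads is not known here. The genes of the ventricular thick filament and troponin complex are among the most abundant transcripts of the heart. In bulk tissue, fewer cells of a type and less RNA per cell cannot be told apart.

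Cardiac muscle markers were bright on every array: 8 of 9 listed cardiomyocyte markers were measured, and their summed level ran from 16.8 to 17.3 in Failure and from 17.0 to 17.2 at Baseline (log2). Array medians lay between 5.59 and 5.66, array maxima between 15.09 and 15.17. The 3'/5' difference of GAPDH, a sign of RNA quality on arrays primed at the 3' end, changed by 0.237 ± 0.556 (SD, n = 9; higher in Failure in 6 of 9 pigs, two-sided exact sign-flip permutation test, p = 0.246). Pig 5 stood apart, with a difference of 3.55 in Failure and 2.61 at Baseline.

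NEBL was at a log2 intensity of 7.13 to 8.11 in Failure with a median of 7.59, against 6.39 to 7.36 at Baseline with a median of 6.93. In Failure it was 8.11 in pig 5, 7.79 in pig 12, 7.67 in pig 11, 7.63 in pig 6, 7.59 in pigs 9 and 10, 7.53 in pig 13, 7.43 in pig 14 and 7.13 in pig 8. At Baseline it was 7.02 in pig 5, 6.60 in pig 12, 7.36 in pig 11, 7.27 in pig 6, 6.39 in pig 9, 6.93 in pig 10, 6.78 in pig 13, 6.88 in pig 14 and 7.03 in pig 8. The groups overlapped through 3 animals: the Failure value of pig 8 lay below the Baseline values of pigs 6 and 11. The other 8 Failure values lay above all Baseline values.

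Within animals the NEBL change was positive in 9 of 9 pigs, which 0.217% of all tested probe sets showed (52 of 23935). The change was 1.20 in pig 9, 1.19 in pig 12 and 1.09 in pig 5, and it was smallest in pig 11 with 0.31 and pig 8 with 0.10. The mean was 7.61 ± 0.26 in Failure and 6.92 ± 0.30 at Baseline (SD, n = 9 each), a change of 0.69 (SE 0.11, 95% interval 0.45 to 0.93), or 1.61-fold (1.37 to 1.90). The animals thus differed from each other by more than the mean change itself: pig 9 exceeded pig 8 by over 1 log2 unit. The SD of the change over pigs was 0.40, larger than that of 93.7% of probe sets.

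**Figure D1:**
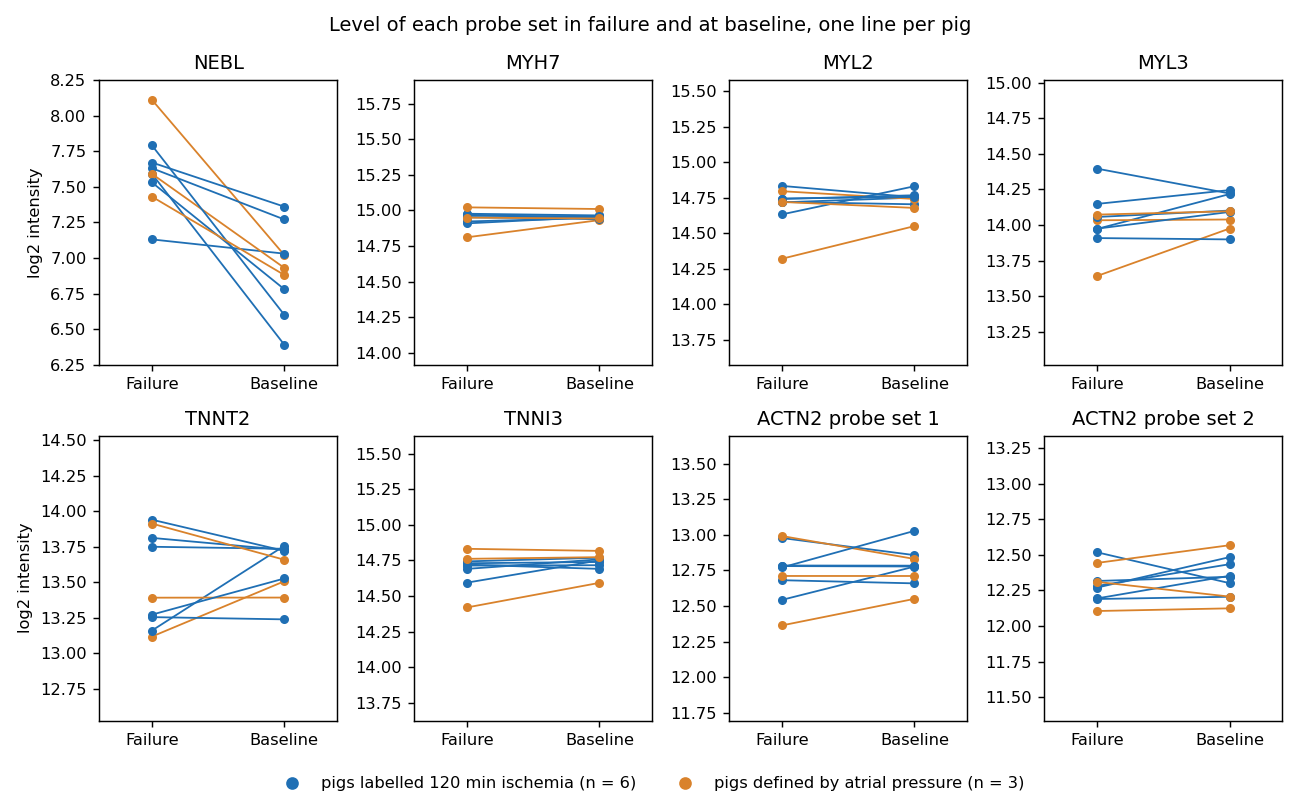
Log2 intensity of the 8 probe sets in Failure (left) and at Baseline (right), with 1 line per pig, the 6 timed pigs in blue and the 3 pressure-defined pigs in orange. Every panel spans the same number of log2 units; NEBL lines are higher on the Failure side in 9 of 9 pigs, and those of the other probe sets lie close to level or cross.

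In the paired fit over all probe sets with limma, 16 of 23935 passed an adjusted p of 0.05 (0.0668%), 5 higher and 11 lower in Failure. At an unadjusted p of 0.05 the share was 6.14% (1470). NEBL was in the last 4 of the 16, next to the threshold: it shared an adjusted p of 0.0342 with PTPN4, which encodes a tyrosine phosphatase, and with 2 unnamed probe sets, while the nearest probe set outside was that of UBA3, with 0.0578. These values chose NEBL and are given for that reason alone. The 7 other member probe sets were not among the 1470.

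The size of the NEBL change held when single animals were left out, whereas its place past the threshold did not. With the spread of this probe set alone its change had an SE of 0.13, and that unmoderated paired test called 0 of 23935 probe sets. When pigs were left out 1 at a time, the change was 0.63 to 0.76 and stayed past the limma threshold without pig 6 or pig 8 only, whereas leaving out pig 5, 9, 10, 11, 12, 13 or 14 ended the call (adjusted p from 0.0130 to 0.140 over the 9 fits). Without pig 5, the animal with the high GAPDH differences, the change was 0.64 (SE 0.11, limma adjusted p = 0.104).

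A property of the deposited table goes with this contrast. Of the tested probe sets, 1467 hold at most 2 decimals on all arrays and the other 22468 hold more. An unmoderated paired comparison of Failure with Baseline in limma's linear model gave 1431 of the 1467 an unadjusted p under 0.05, the largest being 0.0564. It gave 0 of the 22468 such a value, the smallest being 0.0500147. All 16 called probe sets, NEBL included, are among the 1467, and the other 7 member probe sets are not. Of the 1470 probe sets at an unadjusted limma p of 0.05, 1083 are among the 1467. The rounding step is at most 0.005 log2 units to either side, small beside the NEBL change. That size concerns rounding alone and does not bear on the split of the rows along this contrast. Why these rows were written differently was not tested.

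NEBL has 1 named probe set, so no second probe set was there to compare. The summed level of red blood cell markers moved with the same contrast: it was 8.64 to 9.86 in Failure and 9.49 to 11.1 at Baseline. That sum was lower in Failure in 9 of 9 pigs (-0.81 ± 0.39, SD), with ALAS2, AHSP and HBM of 5 measured markers past the threshold. These 3 are, like all called probe sets, among the rows written with at most 2 decimals. HBB, whose extreme changes hold more decimals, changed by -0.24 and did not pass (limma adjusted p = 0.770). It was lower in Failure in 6 pigs and higher in 3. The cardiomyocyte sum changed by -0.04 ± 0.08. Of its 8 markers 6 are the other member genes. Its brightest markers, MYH7, TNNI3 and MYL2, lay near the top of the intensity range, so this sum sets no bound on those transcripts. Sums of smooth muscle (4 of 5 markers measured, 0.13 ± 0.33), fibroblast (4 of 6, 0.08 ± 0.26), endothelial (5 of 5, 0.03 ± 0.23), leukocyte (4 of 6, 0.02 ± 0.27) and adipocyte markers (3 of 4, 0.07 ± 0.29) moved by less than their SD over pigs. In these sums of linear intensity the brightest marker weighs most. The adipocyte sum rests mainly on FABP4 (mean level 11.03), as LEP (5.78) and ADIPOQ (3.54) were dim. The brightest smooth muscle marker was DES (11.46, ACTA2 10.93), which is also among the listed Z-disc genes. Among the markers of these last 5 cell types, ACTA2 (0.26) and LEP (0.13) were at an unadjusted limma p of 0.05. Neither passed (limma adjusted p = 0.774 and 0.736). The part of any of these sums in the NEBL change was not tested.

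The genes whose level followed NEBL most closely over the 18 arrays, among 4923 genes at or above the median level, were EIF5B (r = 0.70), EPC1 (0.70), CSTF3 (0.69), MMD (0.68) and PTPN4 (0.67). EIF5B encodes a translation initiation factor, EPC1 a subunit of a histone acetyltransferase complex and CSTF3 a subunit of the mRNA cleavage stimulation factor. The arrays come in pairs from 9 pigs and share the Failure and Baseline grouping, so these values are descriptive. PTPN4, like NEBL, is a probe set written with at most 2 decimals, and the extreme changes of EPC1, CSTF3 and MMD hold no more. Over the 9 within-pig changes, r with NEBL was 0.83 for PTPN4, 0.77 for EIF5B, 0.76 for MMD, 0.51 for EPC1 and 0.43 for CSTF3. None of the 5 is a sarcomere gene, and the levels of the 6 other member genes had r of -0.47 to -0.30 with that of NEBL.

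**Figure D2:**
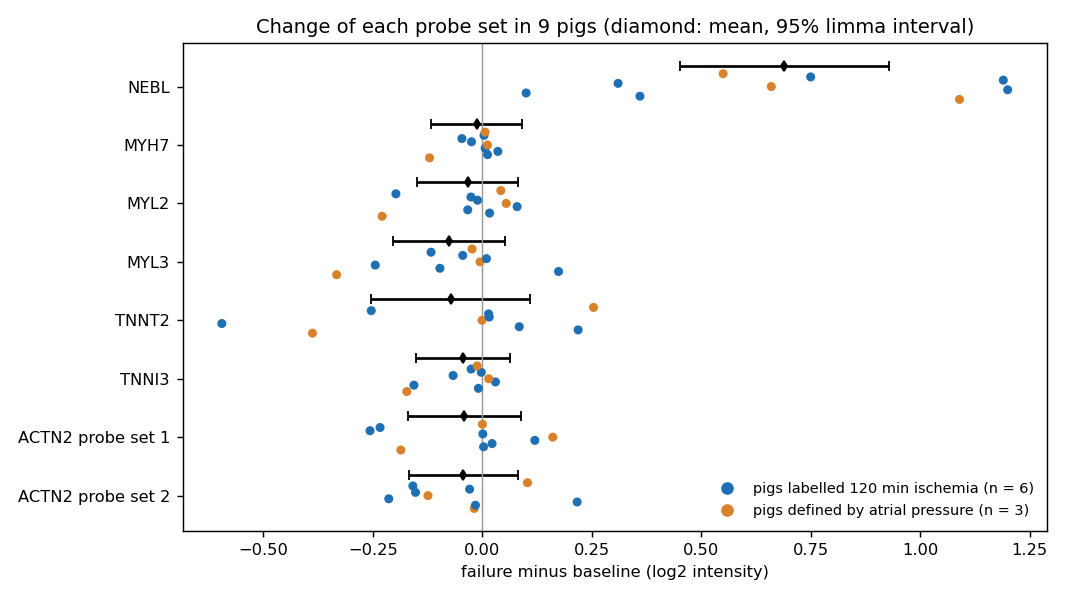
Failure minus Baseline change (log2) of each probe set in 9 pigs (points; timed pigs blue, pressure-defined pigs orange), with the limma mean and 95% interval (black diamonds and bars). NEBL lies between 0.10 and 1.20, and the other 7 means lie between -0.08 and -0.01 with intervals that include 0.

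The other Z-disc member, ACTN2, encodes sarcomeric alpha-actinin. Its brighter probe set was at 12.36 to 12.99 in Failure with a median of 12.77, against 12.55 to 13.03 at Baseline with a median of 12.78. The change was -0.04 (SE 0.06, 95% interval -0.17 to 0.09), from -0.26 in pig 12 to 0.16 in pig 10. The groups overlapped, with the Failure values of pigs 5 and 13 below all Baseline values.

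The second ACTN2 probe set was at 12.11 to 12.52 in Failure with a median of 12.28, against 12.12 to 12.57 at Baseline with a median of 12.35. Its change was also -0.04 (SE 0.06, -0.17 to 0.08), from -0.21 in pig 9 to 0.22 in pig 8. The 2 probe sets had the same mean change but not the same pigs behind it: they moved the same way in 5 pigs and opposite ways in 4, and were 0.33 log2 units apart in pig 9.

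Of the thick filament, MYH7 encodes the slow beta myosin heavy chain, the main motor of the adult ventricle in pigs and humans. Its probe set was at 14.81 to 15.02 in Failure with a median of 14.95, against 14.93 to 15.01 at Baseline with a median of 14.95. The change was -0.01 (SE 0.05, -0.12 to 0.09), higher in 6 pigs and lower in 3. Pig 5, at -0.12, was the 1 animal outside -0.05 to 0.04.

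MYL2, the regulatory light chain of ventricular myosin, was at 14.32 to 14.83 in Failure with a median of 14.72, against 14.55 to 14.83 at Baseline with a median of 14.75. The change was -0.03 (SE 0.05, -0.15 to 0.08), with -0.23 in pig 5 and -0.20 in pig 13 and from -0.03 to 0.08 in the other 7 animals. MYL3, the essential light chain, was at 13.64 to 14.40 in Failure with a median of 14.03, against 13.90 to 14.24 at Baseline with a median of 14.10. It was lower in Failure in 7 of 9 pigs, with a mean change of -0.08 (SE 0.06, -0.20 to 0.05) and extremes of -0.33 in pig 5 and 0.17 in pig 6.

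Of the thin filament, TNNT2 encodes troponin T, the subunit that binds tropomyosin. Its probe set was at 13.12 to 13.94 in Failure with a median of 13.39, against 13.24 to 13.76 at Baseline with a median of 13.66. Its change was the most variable of the 7, from -0.60 in pig 9 and -0.39 in pig 5 to 0.22 in pig 6 and 0.25 in pig 14 (mean -0.07, SE 0.09, -0.25 to 0.11). It was higher in Failure in 5 pigs and lower in 4, and the SD over pigs, 0.28, was larger than that of 76.5% of probe sets.

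TNNI3, the inhibitory subunit troponin I, was at 14.42 to 14.83 in Failure with a median of 14.72, against 14.59 to 14.82 at Baseline with a median of 14.75. The change was -0.04 (SE 0.05, -0.15 to 0.06), lower in 7 of 9 pigs. Pigs 5 (-0.17) and 8 (-0.16) were lowest, and the groups overlapped.

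All 7 mean changes of these 6 genes lay below 0, with a median of -0.04, whereas the median over all 23935 probe sets was 0.000344. None of them was past the limma threshold, and each interval included 0. The same arrays enter all 7 values, and the animals were unlike each other. In pig 5, 7 of 7 probe sets were lower in Failure (median -0.19), and pig 5 was the lowest animal for 4 of them. Without pig 5, 6 of the 7 means were below 0, from -0.05 to 0.000488 with a median of -0.03. In pigs 12 and 13, 6 of 7 were lower (medians -0.03 and -0.16). In pigs 6 and 14, 2 of 7 were lower, and pigs 8, 9, 10 and 11 had 3 or 4 of 7 lower.

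MYH7, TNNI3 and MYL2 lay near the top of the intensity range. MYH7 ranked 3 to 9 by brightness on the 18 arrays and was 0.0948 to 0.277 log2 units below the brightest probe set of its array. TNNI3 ranked 7 to 14 (0.288 to 0.668 below) and MYL2 ranked 8 to 18 (0.304 to 0.767 below). Only 19 probe sets have a mean within 1 log2 unit of the median array maximum, and these 3 are among them. MYL3 ranked 16 to 36, TNNT2 28 to 89, and the ACTN2 probe sets 104 to 172 and 174 to 245. NEBL was far from the ceiling, at rank 3872 to 9354 and 6.98 to 8.74 below the array maximum.

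The spread of the change between pigs was smaller at the highest levels. Its median SD was 0.211 at levels from 2 to 4 (6068 probe sets), 0.242 from 4 to 6 (7202), 0.204 from 7 to 8 (3059), 0.142 from 12 to 13 (159), 0.123 from 13 to 14 (73) and 0.0650 at 14 or more (25). The SD of MYH7 was 0.0467, smaller than that of all but 0.0501% of probe sets, and those of TNNI3 (0.0732) and MYL2 (0.109) were smaller than all but 0.460% and 4.01%. The largest mean change at 14 or more was that of OAZ1, an inhibitor of polyamine synthesis named after its values were seen. It was -0.79 and did not pass (limma adjusted p = 0.0854). The mean change and mean level of OAZ1 are of the form that values with at most 2 decimals give, as for NEBL. The mean level of OAZ1, 14.02, was below those of MYH7 (14.95), TNNI3 (14.71) and MYL2 (14.71). The 95th percentile of the absolute mean change in these 25 probe sets was 0.0720. The deposited table holds no saturation flags, so whether the 3 probe sets were saturated was not tested, and their intervals describe the intensity and set no bound on the transcript.

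**Figure D3:**
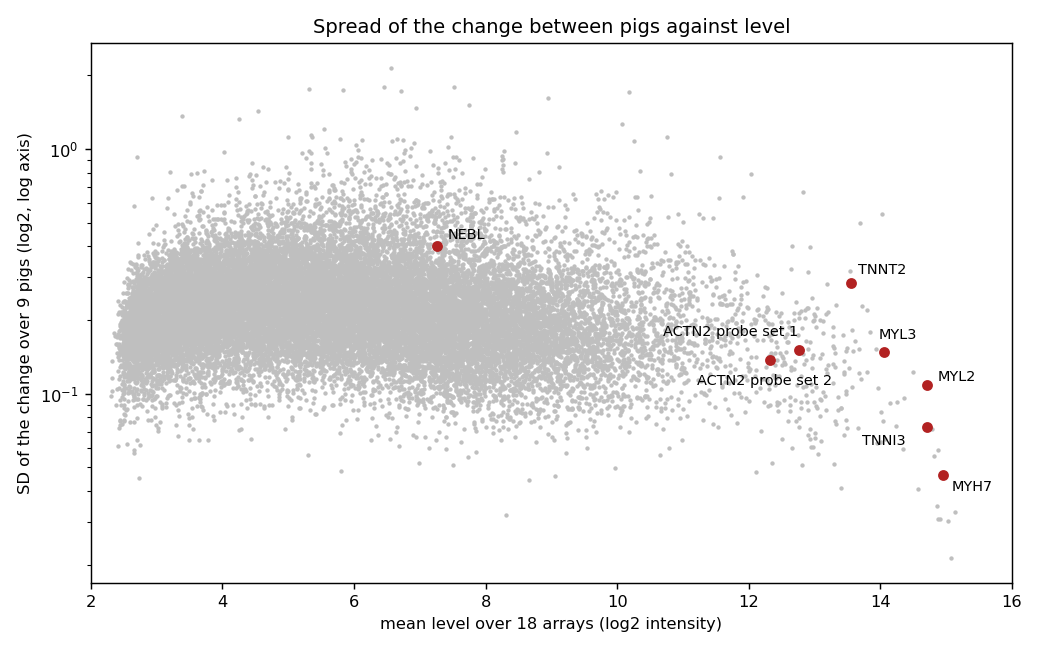
SD over 9 pigs of the Failure minus Baseline change (log2, log axis) against mean level over 18 arrays (log2 intensity) for 23935 probe sets (grey) and the 8 member probe sets (red). The spread narrows above a level of 13, where MYH7, TNNI3 and MYL2 lie at the right edge with SDs of 0.0467, 0.0732 and 0.109, whereas NEBL lies high in the middle of the range with 0.40.

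The within-pig changes were set beside the change of the GAPDH 3'/5' difference in the same pig, for the brightest probe set of each of the 7 genes. The GAPDH difference was 1.18 higher in Failure in pig 13, 0.94 in pig 5 and 0.55 in pig 12, and was lower in Failure in pigs 9 (-0.44), 14 (-0.33) and 11 (-0.09). The MYL2 changes of pigs 5 and 13 were the lowest, and these 2 pigs had the largest GAPDH changes: over 9 pigs Spearman's rho was -0.88 (exact permutation p = 0.00308) and Pearson's r -0.93 (exact permutation p = 0.000689). With the animals farthest from the median, pigs 13 and 5, left out, r was -0.80, and within the 6 timed pigs -0.94 (exact permutation p = 0.00833). Adjusted by Benjamini-Hochberg over the 7 genes, the exact permutation p of MYL2 over 9 pigs was 0.00482 for r and 0.0215 for rho. The 3 pressure-defined pigs are too few for a value.

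The brighter ACTN2 probe set had r = -0.83 (exact permutation p = 0.00769) and rho = -0.62 (exact permutation p = 0.0857), with r = -0.70 without pigs 13 and 5 and -0.88 in the timed pigs (exact permutation p = 0.0167). Its second probe set had r = -0.00244, so the 2 probe sets of ACTN2 differed in this relation. An r at least as far from 0 as that of MYL2 was found for 0.506% of all probe sets (121), and as that of ACTN2 for 3.24% (776). In the limma fit over all probe sets with the GAPDH difference as a covariate, the slope was -0.18 (SE 0.09, adjusted p = 0.396) for MYL2 and -0.22 (SE 0.10, adjusted p = 0.328) for ACTN2, so neither passed over the whole array. With that covariate the changes were 0.01 for MYL2 and 0.01 for ACTN2.

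Of the 7 relations computed, the other 5 were weaker. MYH7 had r = -0.48 (exact permutation p = 0.182) and rho = -0.33, TNNI3 had r = -0.44 (exact permutation p = 0.231) and rho = -0.50, and without pigs 13 and 5 their r was -0.34 and -0.34. MYL3 had r = -0.32 and TNNT2 r = -0.23, and both turned positive without pigs 13 and 5 (0.31 and 0.39), so they rested on those animals. NEBL had r = 0.23 (exact permutation p = 0.542) and rho = 0.08, with r = -0.04 without pigs 13 and 5 and 0.03 in the timed pigs. Its change with the covariate was 0.65 (SE 0.12), no longer past the limma threshold (adjusted p = 0.145).

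**Figure D4:**
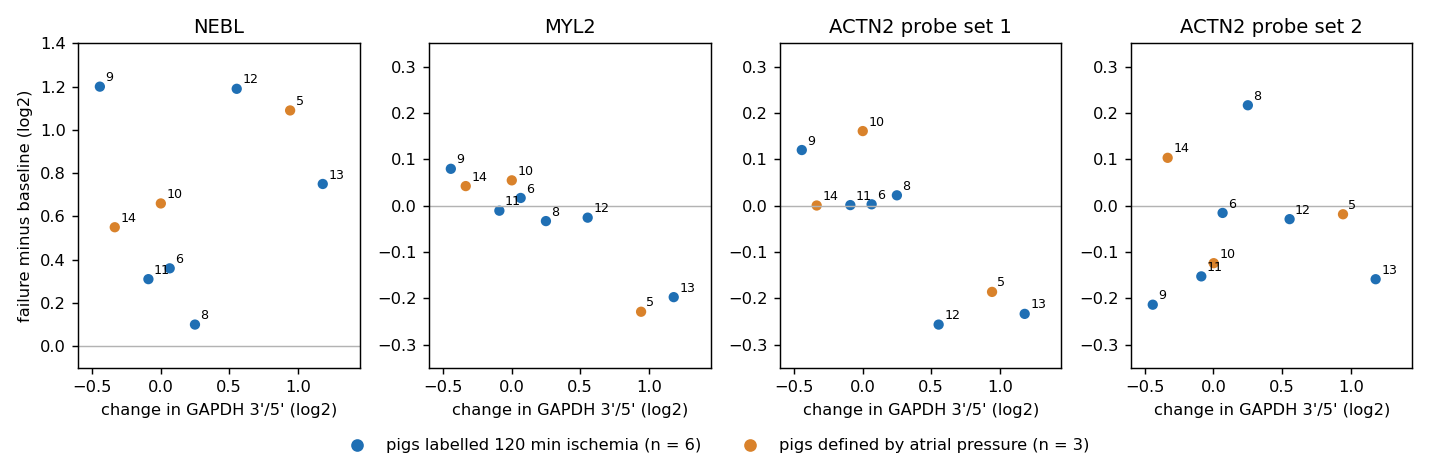
Failure minus Baseline change (log2) of NEBL, MYL2 and both ACTN2 probe sets against the change of the GAPDH 3'/5' difference (log2) in the same pig (numbers name the pigs; timed pigs blue, pressure-defined pigs orange; the NEBL panel has its own vertical scale). MYL2 declines to the right with pigs 5 and 13 lowest, the brighter ACTN2 probe set does so with pigs 5, 12 and 13 lowest, and NEBL and the second ACTN2 probe set scatter.

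The response did not pass a test of difference between the timed and the pressure-defined pigs for any member. In the limma interaction test none of the 23935 passed (0 or 0%), the smallest adjusted p was 0.867, and 5.67% (1356) lay under an unadjusted 0.05. NEBL changed by 0.65 ± 0.47 (SD, n = 6) in the timed pigs, from 0.10 to 1.20, and by 0.77 ± 0.29 (SD, n = 3) in the pressure-defined pigs, from 0.55 to 1.09. The difference between them was -0.12 (SE 0.24, 95% interval -0.63 to 0.40; limma adjusted p = 0.984), an interval wide enough to hold differences nearly as large as the change itself. Differences of the other 7 probe sets ran from -0.05 to 0.07. The largest, for MYL3, was a change of -0.05 in the timed and -0.12 in the pressure-defined pigs (interval of the difference -0.21 to 0.35).

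Other sarcomere genes were taken from 5 lists of the nebulin family, Z-disc, thick filament and M-band, thin filament, and atrial, fetal or skeletal isoforms. Of 76 listed genes 47 were measured. By the brightest probe set, 29 were higher and 18 lower in Failure with a median change of 0.02, and 0 passed the limma threshold, with 3 at an unadjusted p of 0.05. Over all 72 probe sets of these genes 0 passed and 6 were at an unadjusted p of 0.05. Among all 23935 tested probe sets 0.0668% passed and 6.14% were at an unadjusted p of 0.05.

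In the nebulin family, 2 of 3 listed genes were measured, and neither passed. NEB, the giant thin filament protein of skeletal muscle, averaged 8.31 ± 0.82 in Failure and 8.80 ± 0.58 at Baseline (SD, n = 9 each) and was lower in Failure in 8 of 9 pigs, with a change of -0.49 (SE 0.16, limma adjusted p = 0.571). Pigs 11 (-1.67) and 5 (-1.23) moved most, and pig 8 was the 1 animal higher in Failure (0.21). NRAP, an actin-binding protein of nascent myofibrils and intercalated discs, averaged 9.11 ± 0.43 in Failure and 8.96 ± 0.28 at Baseline, a change of 0.16 (SE 0.10, limma adjusted p = 0.888) that was higher in 7 pigs and lower in 2. NEB thus pointed the other way from NEBL on average, but like NEBL it is a probe set written with at most 2 decimals.

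Of 30 listed Z-disc genes 18 were measured, 12 higher and 6 lower with a median of 0.02. Their 3 brightest were PDLIM5, a PDZ and LIM protein that binds alpha-actinin (-0.03), CRYAB, the chaperone of desmin (0.08), and ANKRD1, a titin-binding stress-response protein (0.03). Of the dimmer probe sets of these genes, CRYAB had one with a change of 1.15 (SE 0.37, limma adjusted p = 0.570) and PDLIM5 one with 0.26 (SE 0.08, limma adjusted p = 0.528), higher in 9 of 9 pigs. Neither passed, and both are named here after their values were seen.

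Thick filament and M-band genes numbered 7 of 15 measured, 4 higher and 3 lower, median 0.03. TTN, the molecular spring from Z-disc to M-band, had a change of 0.04, and the M-band proteins MYOM1 and MYOM2 had -0.05 and -0.00267. Thin filament genes numbered 10 of 13, 5 higher and 5 lower, median -0.02. TNNC1, the calcium-binding troponin C, had a change of -0.04, TPM1, tropomyosin, -0.06 and ACTC1, cardiac actin, 0.00117.

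Atrial, fetal or skeletal isoforms numbered 10 of 15, 7 higher and 3 lower, median 0.02. MYL4, the atrial essential light chain, had a change of 0.14 (SE 0.24) that ran from -2.00 to 1.15 over pigs. TNNT1, slow skeletal troponin T, had -0.09 (-1.24 to 0.75) and MYL1, a fast skeletal light chain, 0.06 (-0.54 to 0.97). None of the 3 passed (limma adjusted p from 0.959 to 0.975).

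**Figure D5:**
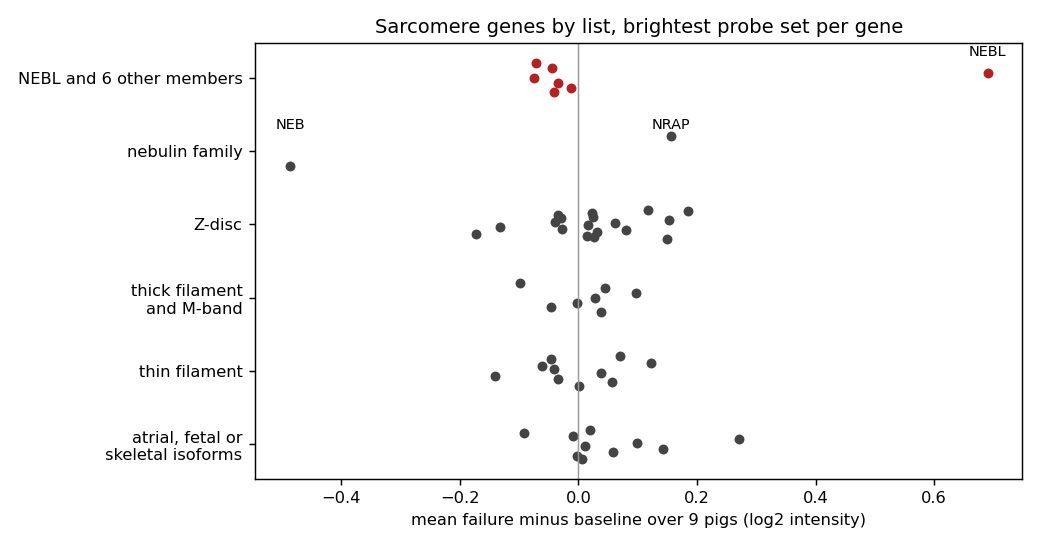
Mean Failure minus Baseline change (log2) over 9 pigs of the brightest probe set of each gene, for the 7 members (red) and for 47 other sarcomere genes in 5 lists (grey), with NEBL, NEB and NRAP named. The 47 lie between -0.49 (NEB) and 0.27, and NEBL, which was chosen by this change, lies at 0.69.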

How the data were processed

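RNA of 18 samples (9 pigs, 2 samples each) was extracted with Trizol and RNeasy columns and labelled with the 3' IVT Express kit, per the labels' protocols. The authors deposited 1 log2 intensity for each probe set and array. Partek is named without a version per the submitters' processing notes. How background was corrected, arrays scaled and probes summarised is not given in the sources used. Array distributions were alike, so a shift of most transcripts in 1 direction would not be visible.

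Of 24123 probe sets 188 controls were left out. Symbols come from the platform's probe table, 8 of 8 member symbols matched RefSeq, and 0 probe sets with several symbols held a member. Failure was compared with Baseline by limma (version 3.58.1, run under R 4.3.3) with a block for each pig (two-sided, adjusted by Benjamini-Hochberg over 23935 probe sets, threshold 0.05), and the difference between timed and pressure-defined pigs as an interaction. Standard errors are limma's, drawn toward a pooled spread. The labels pair the samples by pig number. Deviations from the group means correlated between both samples of a pig with r of 0.449 to 0.750, best with the own pig in 9 of 9 pigs.

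The members, lists, tests and alternatives were chosen with earlier results of these data known. Named genes are all members, list genes past the threshold, the 3 brightest of each list (cell type lists are given as sums of linear intensity), and the 5 with the highest r with NEBL. A list gene is represented by its brightest probe set. Alternatives were no block, a random pig effect, other scalings, a filter on dim probe sets, other variance models, an unmoderated test, a GAPDH covariate, rounding, 1 or the mean of a gene's probe sets, each pig left out and each label group alone. The fit was tested on simulated data.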

Additional observations from a re-analysis of the deposited data

Results flagged for a closer look

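In 3 of 27 groups of 9 values, 1 animal stood far from the other 8, where chance gives about 1 in 20 (1.35). At Baseline MYH7 reached 15.01 in pig 10, with the other animals at 14.93 to 14.97, a gap that is small in absolute terms on a probe set near the top of the range. MYL2 in Failure was lowest in pig 5 at 14.32, with the other animals at 14.63 to 14.83. The GAPDH 3'/5' difference at Baseline was highest in pig 5 at 2.61, with the other animals at 0.61 to 1.49, and the same pig held the lowest change of 4 of the 7 other member probe sets.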

How the results depend on the processing

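The count of 16 called probe sets was 0 without the replicate block (440 at an unadjusted p of 0.05), 0 in the unmoderated paired test (1431), 9 with the GAPDH covariate, 7 with 1 probe set per gene, 5 with the mean of a gene's probe sets, 3 in the timed pigs alone and 0 in the pressure-defined pigs alone (1211), and 2 to 26 with a pig left out. NEBL stayed higher in all 23 alternatives. As 9 of 9 pigs had a positive change, leaving pigs out could not turn its sign. NEBL was past the limma threshold in 11 alternatives. It no longer passed without the replicate block (0.69, adjusted p = 0.214), in the unmoderated paired test (0.69, adjusted p = 0.550), with the covariate (0.65, 0.145), in the timed pigs alone (0.65, 0.426) or the pressure-defined pigs alone (0.77, 0.682), and in 7 of 9 fits with a pig left out (0.63 to 0.76 over the 9). The 7 other member probe sets gave 159 values from -0.12 to 0.0120, all within 1 SD and 0 past the threshold (smallest adjusted p 0.861). The interaction count was 0 in every alternative run (1008 to 1782 at an unadjusted p of 0.05). Reversed were the NEBL difference between timed and pressure-defined pigs without pig 5 (0.0467; -0.225 to 0.0467 with each pig left out) and the GAPDH relations without pigs 13 and 5 of NEBL (-0.0425), MYL3 (0.305) and TNNT2 (0.386), and in the timed pigs of MYL3 (0.0319) and TNNT2 (0.165). The cause of these differences was not tested. The GAPDH change was between 0.119 and 0.322 in its alternatives and passed in none.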

Other observations

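Among the 72 probe sets of other sarcomere genes, the remaining ones at an unadjusted p of 0.05, named after their values were seen, were 1 of 3 TPM1 probe sets (0.18, SE 0.06, higher in 7 and lower in 2 of 9 pigs; limma adjusted p = 0.607), ACTN1, the non-muscle alpha-actinin (0.15, SE 0.06, limma adjusted p = 0.739), and LMOD3, a thin filament protein of skeletal muscle, at a dim mean level of 3.12 (-0.14, SE 0.06, limma adjusted p = 0.798). Of all 1470 probe sets at that unadjusted limma p, 1083 hold at most 2 decimals. TNNI1, the fetal and slow skeletal troponin I, was also named after its values were seen. It averaged 6.77 ± 0.47 in Failure and 6.50 ± 0.85 at Baseline (SD, n = 9 each). Its change ran from -1.29 to 2.04 over pigs.

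PLN, the inhibitor of the cardiac calcium pump, and CKM, the muscle creatine kinase, are markers outside the rule for named genes. They had changes of -0.05 (SE 0.07) and -0.08 (SE 0.06) that did not pass in limma (adjusted p = 0.951 and 0.908). All 8 measured cardiomyocyte markers thus had mean changes below 0, as did 11922 of all 23935 tested probe sets. Of the 8 markers 6 are the member genes, and the same arrays enter all 8 values. Without pig 5 the MYH7 change was 0.000488, and 6 of the 7 probe sets of these member genes stayed below 0. With the GAPDH covariate the changes of MYL2 and the brighter ACTN2 probe set were 0.01 each. Those of MYL3 (-0.06), TNNT2 (-0.04), the second ACTN2 probe set (-0.04), TNNI3 (-0.03) and MYH7 (-0.00332) stayed below 0.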
